A study of Mus musculus with 8 samples.

Results

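Collagen genes were taken as the protein-coding genes whose symbol is Col, digits, a, digits. This gave 44 genes among the 54532 of the expression table, of which 31314 were not at 0 in all corneas. All 44 were among the 25402 genes with a mean value of at least 0, which were compared between strains. Total RNA had been sequenced from naive corneas, 4 titled BALB/c and 4 titled C57BL/6N. The study's methods call the strains BALB/cN and C57BL/6N. These are inbred strains that carry no transgene, and only male mice were used for sequencing. The labels do not say whether corneas of a strain came from separate mice, so p-values measure the spread between these corneas, and the methods give an age for the mice of the parental strains but not separately for those sequenced.

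Collagens are secreted or membrane-bound proteins whose chains wind around each other in a triple helix. In the cornea, keratocytes of the stroma make type I and type V collagen, which assemble into the thin, regularly spaced fibrils on which transparency rests. Type VI and type XII collagen connect these fibrils, type VIII collagen builds the lattice of Descemet's membrane, type IV collagen the basement membranes, and types VII and XVII anchor the epithelium to the stroma.

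Values are regularized log (rlog) values on a log2 scale, as the authors deposited them. The transformation draws weakly expressed genes towards their mean, and their fold changes are understated on this scale. Read counts were therefore recovered from the rlog values. They summed to 36.7 to 41.2 M per BALB/cN cornea and 29.7 to 37.0 M per C57BL/6N cornea. At a mean of 4 to 1000 reads, 93.0% of the recovered values lay within 0.1 of a whole number. The share was 70.4% at 1000 to 5000 reads and only 24.7% above 5000, so counts of the abundant collagens are approximate. Genes with a mean under 4 reads were not checked in this way. Differences are BALB/cN minus C57BL/6N, and a gene was called when limma gave it an adjusted p of at most 0.01.

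The corneas of a strain were not alike in their stromal content. The mean rlog value of 8 keratocyte genes other than collagens (among them Kera, Lum and Dcn) was 12.15, 9.89, 11.43 and 12.25 in BALB/cN replicates 1 to 4 and 12.17, 12.22, 9.32 and 9.25 in C57BL/6N replicates 1 to 4. BALB/cN replicate 2 and C57BL/6N replicates 3 and 4 thus held less keratocyte RNA, while 7 epithelial genes (Krt12, Krt5 and others) lay between 15.96 and 16.22 in all 8 corneas. In bulk tissue, fewer cells of a type and less RNA per cell cannot be told apart. BALB/cN replicates 1 and 4 had high means of smooth muscle, pigment cell and lens genes. Their means were 9.40 and 9.93 for smooth muscle genes, against 5.61 to 7.53 in the other 6 corneas. Pigment cell genes lay at 9.58 and 10.48 against 5.85 to 7.96, and lens genes at 7.47 and 6.69 against 4.83 to 5.42. Values that rest on these corneas are given with and without them.

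Of the 44 collagen genes, 5 were called. Col3a1, Col6a4, Col20a1 and Col9a3 were higher and Col4a6 was lower in BALB/cN. Over all genes tested 5.74% were called, 2.83% higher and 2.91% lower. The strains did not overlap in 6 collagen genes, namely these 5 and Col9a1, against 18.3% of all genes. Of these, 4 were higher and 2 lower in BALB/cN, against 8.75% and 9.58%. Differences were positive in 35 collagens and negative in 9, with a median of 0.20 against 0.01 over all genes, of which 52.8% were positive. After centring each cornea on its median 26 collagens were positive and 18 negative, and 30.8% of all genes were positive. Without the 3 stroma-poor corneas 20 were positive and 24 negative, with a median of -0.02. For 10 collagens the unadjusted p-value lay below 0.05, as for 23.7% of all genes tested. On the recovered counts limma voom called 5 collagens and 5.61% of all genes, and with the keratocyte covariate described below 10 and 9.82%. After centring each cornea on its median, limma called 5 collagens (Col9a1 in place of Col9a3) and 3.77% of all genes, and without BALB/cN replicates 1 and 4 it called 2, Col6a4 and Col20a1, and 1.76%. When the width of the null distribution was estimated from the test statistics, 0 genes were called in the whole table.

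**Figure D1:**
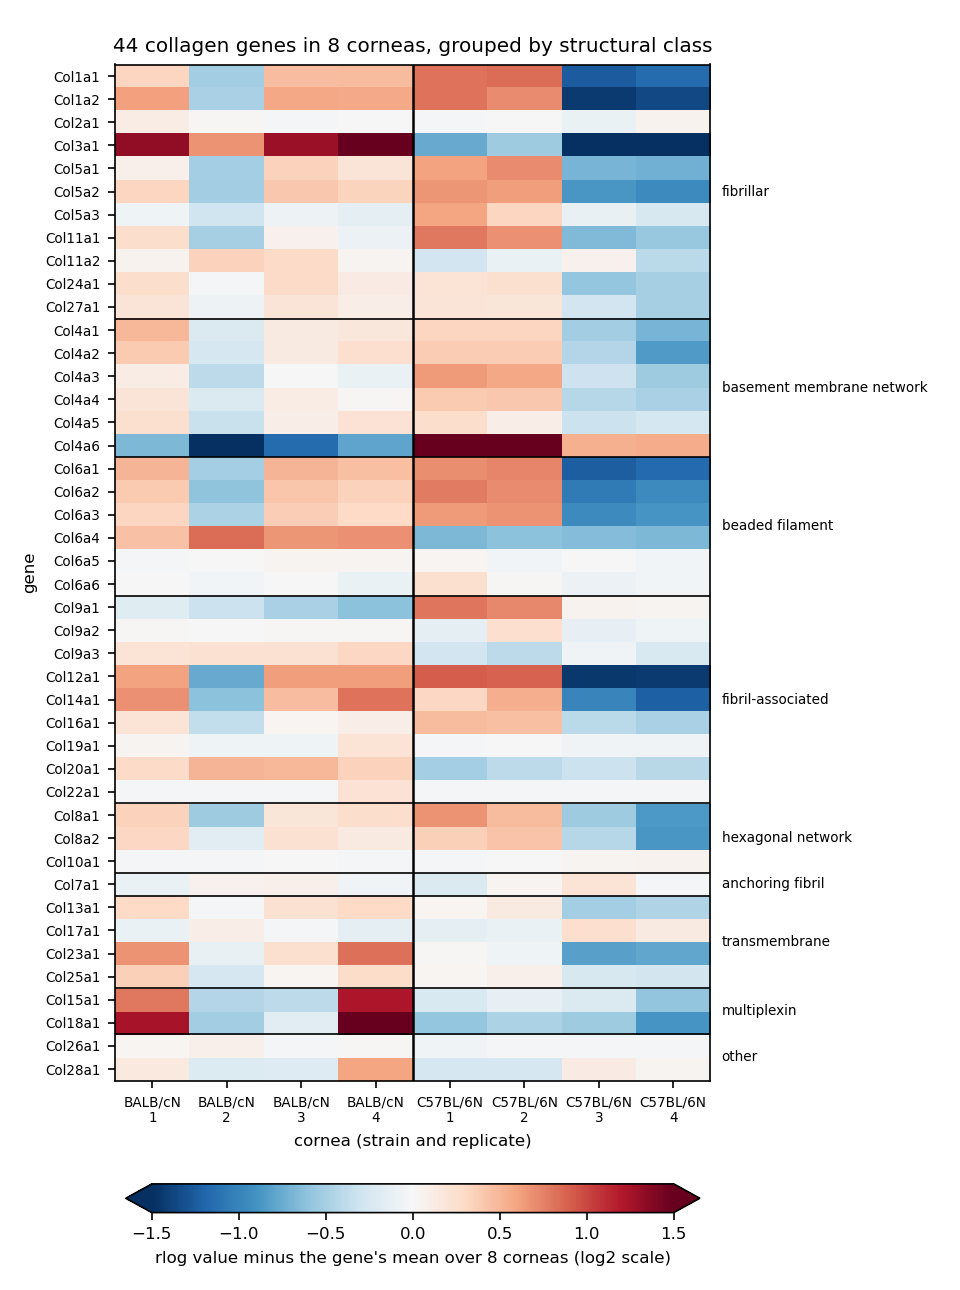
Deviation of the rlog value of each of the 44 collagen genes (rows, grouped by structural class) from its mean over all 8 corneas (columns); red is above and blue below the mean, and the scale ends at -1.5 and 1.5. Col3a1, Col4a6, Col6a4 and Col20a1 split by strain, whereas most fibrillar, type IV and type VI rows are low in BALB/cN replicate 2 and C57BL/6N replicates 3 and 4.

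Col3a1 encodes the single chain of type III collagen, a fibrillar collagen of distensible tissues such as skin and vessel walls. Its rlog values were 11.30, 10.64, 11.27 and 11.57 in BALB/cN and 9.21, 9.44, 8.28 and 8.05 in C57BL/6N replicates 1 to 4. All BALB/cN corneas thus lay above all C57BL/6N corneas, the stroma-poor BALB/cN replicate 2 included. In reads these were 3895, 2134, 3466 and 4381 against 471, 602, 136 and 123. The mean was 11.20 ± 0.39 (SD, n = 4) against 8.75 ± 0.68 (SD, n = 4), with a difference of 2.45 ± 0.32 (standard error; adjusted p = 0.000938 by limma). Normalized read counts were 9.19-fold higher in BALB/cN. The exact two-sided permutation test gave p = 0.0286 with n = 4 per strain, the smallest value this design allows, for this gene and for all 5 others without overlap.

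The difference of Col3a1 was 2.19 ± 0.081 (standard error; adjusted p = 3.96e-08 by limma) with the keratocyte mean as a covariate, and 2.06 without the 3 stroma-poor corneas (adjusted p = 0.000359). Without BALB/cN replicates 1 and 4 it was 2.21, and the gene was no longer called (adjusted p = 0.0363 from limma). BALB/cN replicates 2 and 3 had 2134 and 3466 reads of Col3a1. Their means were 5.84 and 5.61 for smooth muscle, 6.12 and 5.85 for pigment cell and 5.07 and 4.90 for lens genes. The part of these cells in the difference was not tested. Of the 9816 exonic bases of Col3a1, 141 are shared with Gm47302.

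Col4a6 and Col4a5 encode the α6 and α5 chains of type IV collagen and lie head to head on the X chromosome, separated by 1308 bases. Col4a6 had rlog values of 7.70, 6.79, 7.23 and 7.58 in BALB/cN and 9.88, 9.996, 8.91 and 8.93 in C57BL/6N. The strains did not overlap, and within C57BL/6N replicates 3 and 4 were the lower ones. Its reads numbered 190, 58, 98 and 146 against 1343, 1525, 444 and 539. BALB/cN was lower, with a difference of -2.10 ± 0.29 (standard error; adjusted p = 0.00141 by limma), and C57BL/6N had 8.997-fold more normalized reads.

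With the keratocyte covariate the difference of Col4a6 was -2.35 (adjusted p = 9.42e-09 from limma). It was -2.43 without the 3 stroma-poor corneas, and -2.42 without BALB/cN replicates 1 and 4, where it was no longer called (adjusted p = 0.0146 from limma). None of its 7973 exonic bases lies in an exon of another gene. Col4a5 was at 11.01, 10.45, 10.87 and 10.99 in BALB/cN and 11.04, 10.88, 10.46 and 10.51 in C57BL/6N. These values overlap, with a difference of 0.11 (95% confidence interval -0.25 to 0.47, adjusted p = 0.737 from limma). The neighbouring genes thus had unlike values: the log2 ratio of Col4a6 to Col4a5 reads was -4.18 ± 0.42 in BALB/cN and -0.88 ± 0.43 in C57BL/6N (SD, n = 4).

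The sequences before the start sites of Col3a1 and Col4a6 are given because these collagens differed most between the strains in either direction on the rlog scale. The ratio of recovered reads was larger for Col6a4, described below, which has few reads. Each line holds the 250 bases upstream of the RefSeq start (GRCm38.p6), 5′ to 3′ on the strand of the gene, and is reference sequence, not that of BALB/cN. Capitals mark short motifs found on either strand. The TATA box was searched as TATAAA. The GC box was searched as GGGCGG. The third motif, the CCAAT box, was searched by those letters. Col3a1 starts on the plus strand at chr1:45311288-45311537 and Col4a6 on the minus strand at chrX:141474077-141474326.
Col3a1: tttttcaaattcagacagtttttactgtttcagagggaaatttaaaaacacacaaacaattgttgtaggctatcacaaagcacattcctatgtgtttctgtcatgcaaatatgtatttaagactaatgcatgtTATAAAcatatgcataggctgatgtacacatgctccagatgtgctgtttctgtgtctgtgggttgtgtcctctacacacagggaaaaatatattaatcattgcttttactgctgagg
Col4a6: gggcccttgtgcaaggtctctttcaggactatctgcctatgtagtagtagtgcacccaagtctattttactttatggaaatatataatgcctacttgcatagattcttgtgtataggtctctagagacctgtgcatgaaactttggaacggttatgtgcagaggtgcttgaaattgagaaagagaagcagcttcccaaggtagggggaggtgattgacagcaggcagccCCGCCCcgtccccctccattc
In Col3a1 the letters TATAAA begin 117 bases before the start, and whether they act as a TATA box was not tested. Col4a6 holds a GC box on the opposite strand, 21 bases before the start. Col4a5 has a GC box at 30 and a CCAAT box at 196 bases before its own start. Among 32817 RefSeq windows of this length, 12.4% hold the TATA box, 33.8% the CCAAT box and 32.7% the GC box. For 35 of the 44 collagens there were 38 windows, of which 5 held the TATA box, 13 the CCAAT box and 22 the GC box.

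Col6a4 encodes a further chain related to the α3 chain of type VI collagen. It had 79, 135, 100 and 99 reads in BALB/cN and 0, 2, 0 and 0 in C57BL/6N. Reads were all but absent from C57BL/6N corneas. The ratio of 413 to 2 reads, corrected for library size, was 174 with an exact 95% interval of 47.9 to 1444, which covers counting error only. On the shrunken rlog scale the strains differed by 1.31 (5.65 ± 0.17 against 4.34 ± 0.03, SD, n = 4; adjusted p = 2.2e-05 from limma). It was called with the stromal covariate (1.33), without the stroma-poor corneas (1.25) and without BALB/cN replicates 1 and 4 (1.41). Col6a4 shares 289 of 8526 exonic bases with Gm47575 and Gm36993. Its neighbours Col6a5 and Col6a6, in the same orientation on chromosome 9, had 0 to 5 and 2 to 22 reads per cornea.

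Col20a1 and Col9a3 belong to the fibril-associated collagens and lie 364 kb apart on chromosome 2. Col20a1 had rlog values of 9.48, 9.70, 9.69 and 9.53 in BALB/cN and 8.68, 8.80, 8.87 and 8.77 in C57BL/6N. It was higher in every BALB/cN cornea, and the stroma-poor corneas were not the lowest of their strain. Normalized reads were 876 ± 93.4 against 386 ± 30.6 (SD, n = 4), a ratio of 2.27. On the rlog scale it differed by 0.82 ± 0.075 (standard error; adjusted p = 9.24e-05 by limma) and 0.92 without BALB/cN replicates 1 and 4, where it was called, too. Of its exonic bases, 79 of 5142 are shared with BX649560.1.

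Col9a3, a chain of type IX collagen, was at 6.53, 6.55, 6.55 and 6.64 in BALB/cN and 6.04, 5.94, 6.27 and 6.10 in C57BL/6N. Its normalized reads numbered 114 ± 7.85 against 54.8 ± 13.6 (SD, n = 4), and the rlog difference was 0.48 (adjusted p = 0.00788 from limma). This call was lost without the 3 stroma-poor corneas (adjusted p = 0.0173) and without any single cornea other than C57BL/6N replicate 3, with adjusted p-values of 0.0209 to 0.0290. The difference was 0.58 without the stroma-poor corneas and 0.43 to 0.54 with single corneas left out. Col9a3 shares 234 of 3853 exonic bases with Tcfl5. The partner chain Col9a1 went the other way, with 50, 37, 23 and 15 reads in BALB/cN and 173, 159, 50 and 59 in C57BL/6N. Its difference of -0.80 did not pass the threshold (adjusted p = 0.0273 from limma), but it was called at -0.91 with the keratocyte covariate (adjusted p = 0.00177). The third chain, Col9a2, had 0 to 23 reads.

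**Figure D2:**
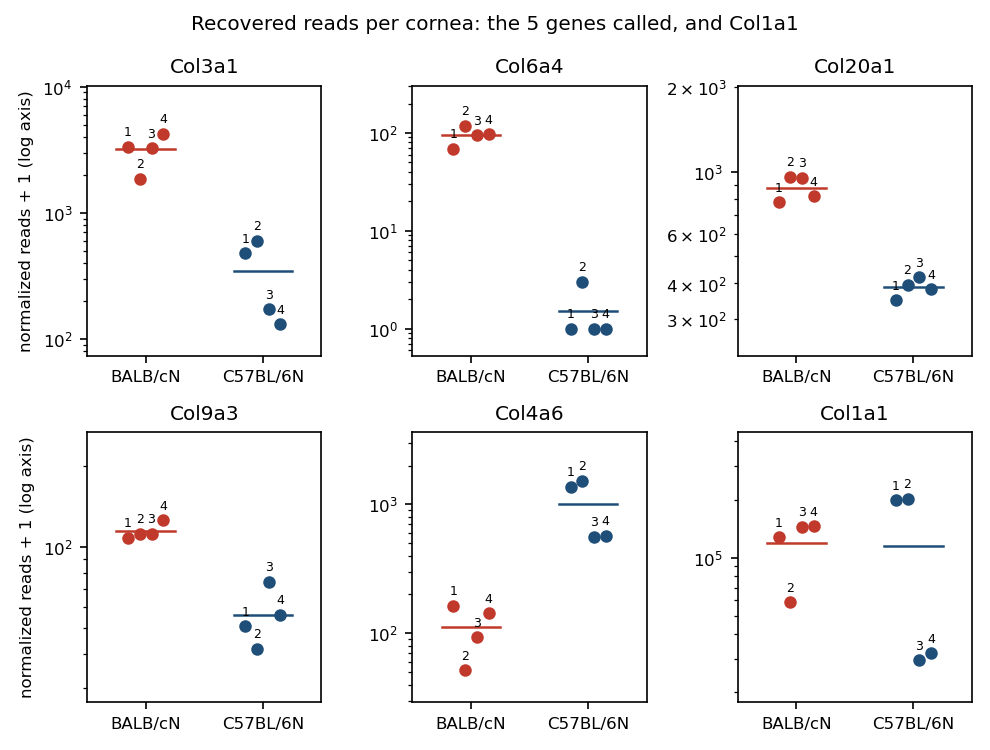
Normalized recovered reads plus 1 (log axis) in each cornea for the 5 called collagens and Col1a1; points are corneas with their replicate number and lines are strain means. The strains do not overlap in the 5 called genes, whereas the C57BL/6N values of Col1a1 lie both above and below those of BALB/cN.

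Col1a1, Col1a2, Col5a1 and Col5a2, fibrillar chains of the stroma, had an SD within C57BL/6N that was larger than their strain difference. Col1a1, the α1 chain of type I collagen, was at 16.87, 16.02, 17.00 and 17.01 in BALB/cN and 17.36, 17.38, 15.30 and 15.38 in C57BL/6N. Col1a2, its α2 chain, was at 15.71, 14.61, 15.67 and 15.66 against 15.91, 15.81, 13.66 and 13.74. In both genes C57BL/6N replicates 1 and 2 had the highest and replicates 3 and 4 the lowest values of all corneas. The differences of 0.37 (95% confidence interval -0.77 to 1.505) and 0.63 (-0.58 to 1.85) were not called.

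Col5a1 and Col5a2, the chains of type V collagen that limit fibril diameter, followed the same order. For Col5a1, values were 13.76, 13.17, 14.03 and 13.88 in BALB/cN and 14.29, 14.39, 12.99 and 12.96 in C57BL/6N. Col5a2 stood at 13.24, 12.41, 13.33 and 13.25 against 13.59, 13.56, 12.05 and 11.97. Differences were 0.05 and 0.27, with adjusted p-values of 0.949 and 0.736 from limma. Col5a2 is the tail-to-tail neighbour of Col3a1 at a distance of 24.6 kb, but was not called. The less abundant Col5a3, Col11a1, Col11a2, Col24a1 and Col27a1 differed by -0.28 to 0.37 and were not called without a covariate, while Col2a1, the cartilage collagen, had at most 14 reads in a cornea.

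The 3 major chains of type VI collagen, which forms beaded filaments, behaved as the type I chains did. Col6a1 was at 14.63, 13.61, 14.63 and 14.57 in BALB/cN and 14.81, 14.85, 12.89 and 12.96 in C57BL/6N. Col6a2 had 14.59, 13.59, 14.61 and 14.54 against 14.98, 14.90, 13.14 and 13.25. Col6a3 had 15.22, 14.42, 15.27 and 15.20 against 15.53, 15.57, 13.94 and 14.01. The strains overlapped in each gene, and differences of 0.26 to 0.49 did not pass the test (adjusted p-values of 0.591 to 0.768 from limma).

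Col12a1, a fibril-associated collagen of the stroma, had the largest spread of any collagen in C57BL/6N (SD 1.35), with 15.61, 15.58, 13.24 and 13.26. In BALB/cN it was at 15.31, 13.94, 15.32 and 15.32, so that replicate 2 alone was low. Col14a1, a related collagen, ran from 6.498 to 7.93 in BALB/cN and from 5.89 to 7.66 in C57BL/6N. Col16a1 ran from 11.12 to 11.69 and from 10.998 to 11.96. Col19a1 and Col22a1 had at most 15 reads.

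Among the chains of type IV collagen, Col4a1 was at 12.55, 11.83, 12.18 and 12.22 in BALB/cN and 12.38, 12.38, 11.53 and 11.36 in C57BL/6N. Col4a2, which overlaps Col4a1 head to head by 22 bases, was at 12.39, 11.73, 12.12 and 12.25 against 12.37, 12.37, 11.55 and 11.14. The log2 ratio of this pair, the chains of the ubiquitous basement membrane network, was 0.08 ± 0.10 in BALB/cN and 0.05 ± 0.16 in C57BL/6N (SD, n = 4). Col4a3 was at 12.89, 12.38, 12.77 and 12.67 against 13.40, 13.35, 12.45 and 12.24. Its head-to-head neighbour Col4a4, 71 bases away, ran from 12.30 to 12.70 and from 12.02 to 12.91. None of these 4 genes was called over all 8 corneas without a covariate. With the keratocyte covariate described below, Col4a3 was called lower in BALB/cN by voom (-0.54, adjusted p = 0.00555) but not by limma on rlog values.

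Col8a1 and Col8a2, the chains of the hexagonal lattice of Descemet's membrane, followed the stromal order. Col8a1 was at 11.64, 10.77, 11.48 and 11.57 in BALB/cN and 11.98, 11.78, 10.77 and 10.44 in C57BL/6N. Col8a2 was at 13.12, 12.65, 13.03 and 12.94 against 13.17, 13.24, 12.38 and 11.93. Differences of 0.12 and 0.26 were not called. The 6 corneal endothelium genes, whose cells lay down this membrane, had means of 9.43, 8.66, 9.14 and 9.62 against 9.42, 9.93, 8.59 and 8.32, and their part was not tested. Col10a1, the hexagonal collagen of growth plate cartilage, had at most 4 reads in a cornea.

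Within each strain, the epithelial collagens Col17a1 and Col7a1 were on average not lower in the stroma-poor corneas than in the others. For Col7a1 this did not hold for each single cornea. Col17a1, the transmembrane collagen of hemidesmosomes, was at 17.03, 17.23, 17.11 and 17.00 in BALB/cN and 17.00, 17.04, 17.39 and 17.28 in C57BL/6N. The 3 stroma-poor corneas had the 3 highest values. Col7a1, which forms anchoring fibrils, was at 12.45, 12.62, 12.63 and 12.50 against 12.33, 12.58, 12.75 and 12.52. Strain differences were -0.08 (95% confidence interval -0.29 to 0.12) and 0.00 (-0.19 to 0.20). The log2 ratio of Col7a1 to Col17a1 reads was -4.53 ± 0.08 in BALB/cN and -4.65 ± 0.17 in C57BL/6N (SD, n = 4). Of the other transmembrane collagens, Col13a1, Col23a1 and Col25a1 differed by 0.39, 0.82 and 0.20, none of them called. Without BALB/cN replicates 1 and 4 the differences were 0.29, 0.47 and -0.01. Col23a1 had 1418 and 1441 reads in these corneas and 654 and 855 in BALB/cN replicates 2 and 3.

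Col18a1, the source of the anti-angiogenic fragment endostatin, had the largest spread in BALB/cN (SD 1.16). Its values were 8.51, 6.75, 7.12 and 9.21 in BALB/cN and 6.69, 6.81, 6.74 and 6.39 in C57BL/6N. Replicates 1 and 4 stood apart with 639 and 1082 reads, against 47 to 137 in the other 6 corneas. The related Col15a1 had 141 and 210 reads in these corneas and 5 to 29 in the others. Replicates 1 and 4 also had the high smooth muscle, pigment cell and lens means given above, and 6 vascular endothelial genes at 6.00 and 6.51 against 5.04 to 5.70. The part of these cells was not tested. Over all corneas the differences were 1.24 (adjusted p = 0.143 from limma) for Col18a1 and 0.58 (adjusted p = 0.358) for Col15a1. Without both corneas that of Col18a1 was 0.27 and that of Col15a1 was -0.13. Col28a1, a collagen of peripheral nerve, had 28 and 64 reads in BALB/cN replicates 1 and 4 and 2 to 18 in the other corneas. The 6 Schwann cell genes lay at 7.69 and 8.34 against 6.90 to 7.88. The value of 7.88 was that of C57BL/6N replicate 2, which had 2 reads of Col28a1. The part of Schwann cells was not tested. Col26a1 had at most 8 reads.

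Compared per kilobase of exon, Col17a1 and Col1a1 were the most abundant collagens. Normalized reads per kilobase of Col17a1 were 23145 ± 2280 in BALB/cN and 25113 ± 4246 in C57BL/6N (SD, n = 4). Those of Col1a1 were 18158 ± 6263 and 17577 ± 14912, so that both levels overlap. Col6a1, Col1a2, Col6a3, Col6a2 and Col12a1 followed with means of 4941 to 2326 over all corneas, and neighbours in this order differed by less than their spread. In BALB/cN, Col3a1 reached 324 ± 100.1 and in C57BL/6N 35.2 ± 23.5 normalized reads per kilobase. All 44 collagens together took 0.723% to 1.88% of the reads of a cornea, and 0.297% to 1.53% without Col17a1.

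The spread within strains was larger for collagens than over all genes. The median SD was 0.23 in BALB/cN and 0.40 in C57BL/6N, against 0.09 and 0.10 over all genes tested. The genes tested include weakly expressed ones, whose spread the rlog transformation draws in. They were not matched to the collagens in read number. In 33 of the 44 collagens, C57BL/6N replicates 1 and 2 were above 3 and 4 on average and BALB/cN replicates 1, 3 and 4 above replicate 2. Over all genes 34.1% had this order. As these corneas were singled out from the same data, this is a description without a test. Col7a1 and Col17a1 were among the 5 collagens with the opposite order. Fibrillar collagens differed between C57BL/6N replicates 1 and 2 and replicates 3 and 4 by a median of 1.16, and type IV collagens by 0.98. In 32 of the 44 genes the SD of at least one strain exceeded the strain difference, as it did in 16386 of the 25402 genes tested.

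**Figure D3:**
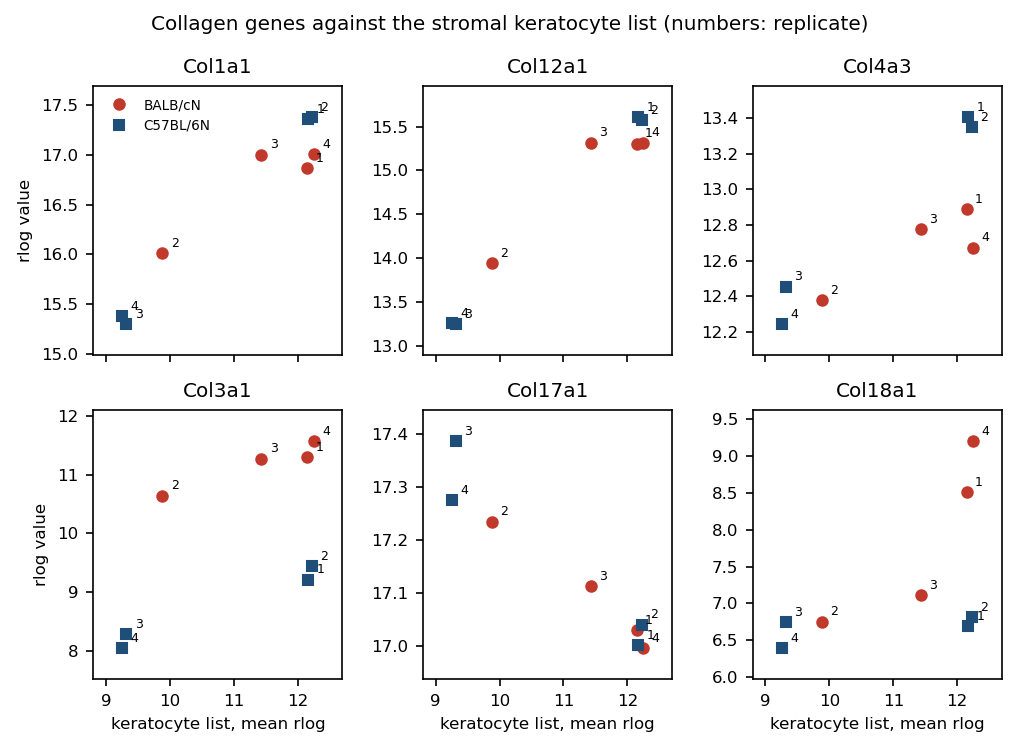
rlog value of 6 collagens (y axes) against the mean rlog value of the 8 keratocyte genes (x axis) in each cornea; circles are BALB/cN and squares C57BL/6N, with replicate numbers. Col1a1 and Col12a1 rise with the keratocyte mean in both strains, Col17a1 falls, Col3a1 forms a separate row for each strain, and Col18a1 is high in BALB/cN replicates 1 and 4.

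Adding the keratocyte mean as a covariate changed which collagens were called. In this fit 8 were called, namely the 5 given above together with Col9a1, Col13a1 and Col23a1, against 9.34% of all genes. Both Col13a1 (0.27, adjusted p = 0.00727 by limma) and Col23a1 (0.61, adjusted p = 0.000478) were higher in BALB/cN. The differences of Col1a1, Col6a2 and Col6a3 became -0.05, -0.11 and -0.07, with standard errors of 0.10 to 0.13. Without the 3 stroma-poor corneas, which left 3 against 2, limma called 10 collagens, 3 higher and 7 lower, and 3.35% of all genes. Besides Col3a1, Col6a4, Col20a1, Col4a6 and Col9a1, these were Col1a1 (-0.41, adjusted p = 0.00639), Col6a2 (-0.36), Col6a3 (-0.32), Col12a1 (-0.28) and Col4a3 (-0.60), all lower in BALB/cN. None of these last 5 was called with the covariate on rlog values, where the adjusted p-value of Col4a3 was 0.0149. Limma voom with the same covariate called Col4a3 (adjusted p = 0.00555) and Col5a3 (-0.60, adjusted p = 0.00645) besides the 8 collagens named above.

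**Figure D4:**
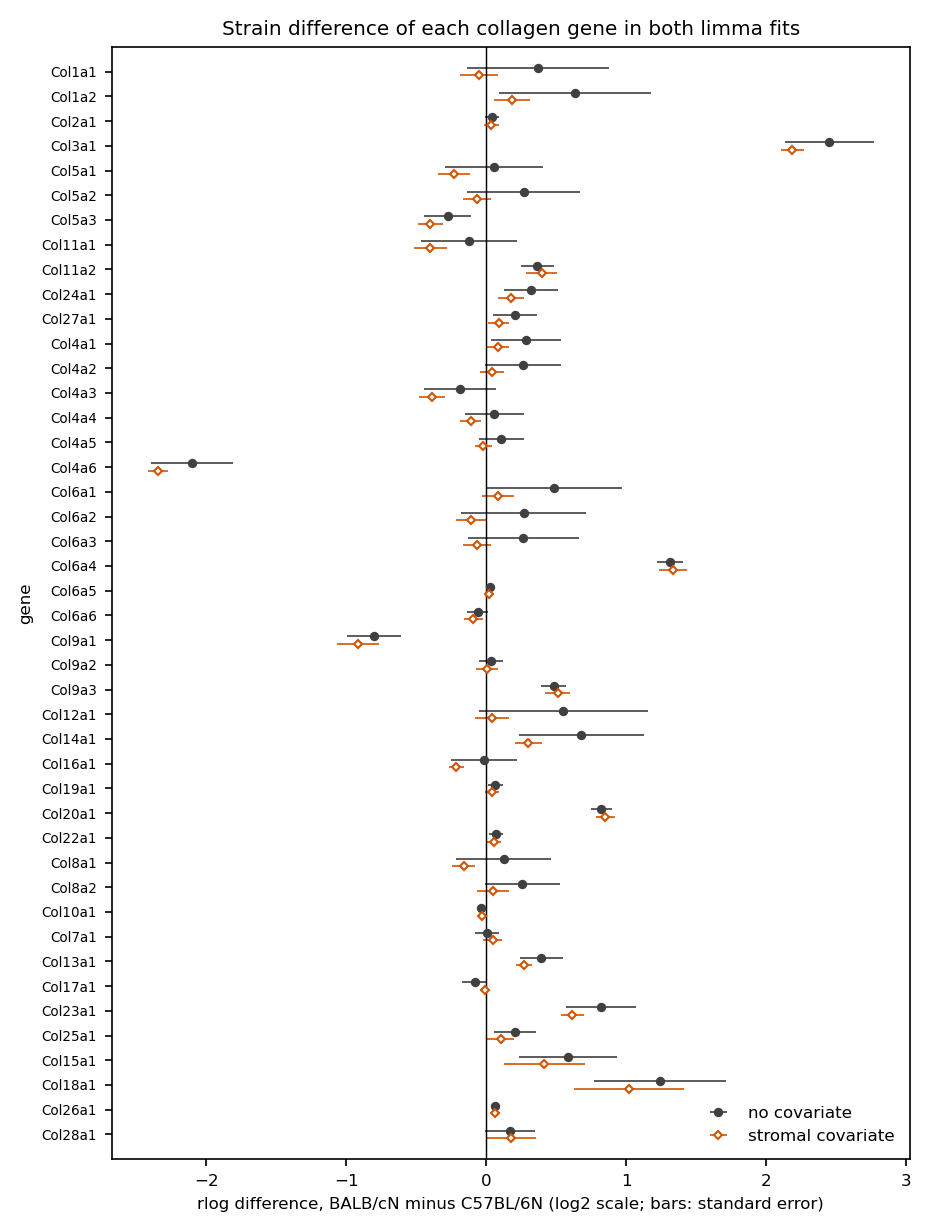
rlog difference, BALB/cN minus C57BL/6N, of each collagen gene with its standard error from limma, without a covariate (filled circles) and with the keratocyte mean as covariate (open diamonds). Col3a1 at 2.45 and Col4a6 at -2.10 lie farthest from 0 in both fits, and the standard errors of the stromal collagens shrink with the covariate.

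Chains were also compared as ratios within each cornea, which were chosen after values had been seen and are given without a test. Of 15 log2 ratios of normalized reads, 6 did not overlap between the strains, 4 lower and 2 higher in BALB/cN. The 18.3% of single genes without overlap is not a background for ratios, and none was computed. Among the 6, Col3a1 to Col1a1, Col4a6 to Col4a5 and Col9a1 to Col9a3 hold genes that already did not overlap by themselves. Col1a1 to Col1a2, whose chains join in a heterotrimer, was at 1.27 ± 0.14 in BALB/cN and 1.63 ± 0.13 in C57BL/6N (SD, n = 4). Col3a1 to Col1a1 was at -5.20 ± 0.21 against -8.11 ± 0.56. Type III reads thus made up 1.58% to 2.25% of type I and III reads in BALB/cN and 0.177% to 0.448% in C57BL/6N. Col6a1 to Col6a2 was at 0.06 ± 0.02 against -0.24 ± 0.15, and Col4a3 to Col4a4 at 0.10 ± 0.06 against 0.42 ± 0.15. The counts of Col1a1, Col1a2, Col6a1, Col6a2, Col4a3 and Col4a4 are above 5000 reads in most corneas, where recovery was less exact. Col9a1 to Col9a3 was at -2.14 ± 0.77 against 0.94 ± 1.11.

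**Figure D5:**
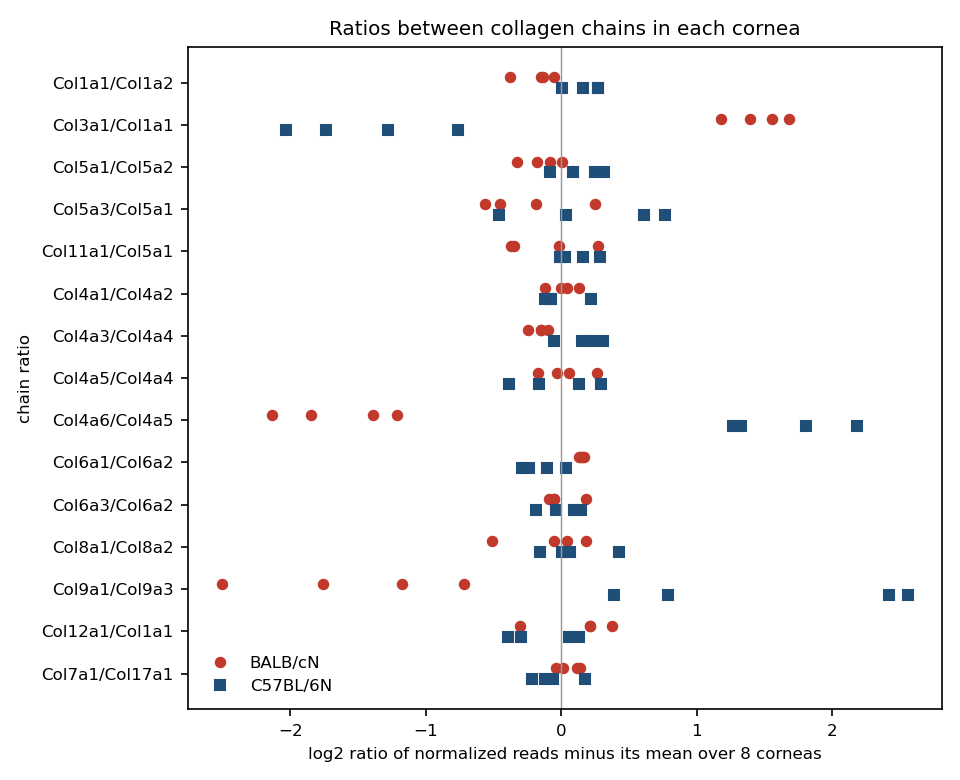
Log2 ratio of normalized reads of 2 collagen chains in each cornea, minus the mean of that ratio over all 8 corneas, for 15 pairs; circles are BALB/cN and squares C57BL/6N. Col3a1/Col1a1, Col4a6/Col4a5 and Col9a1/Col9a3 show the widest gaps between the strains, while Col4a1/Col4a2 and Col6a3/Col6a2 overlap.

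Collagen chains are modified, folded, secreted, cleaved and cross-linked by further proteins. Of 37 such genes, 0 were called higher and 1 lower, against 2.83% and 2.91% of all genes. This was P4hb, the β subunit of prolyl 4-hydroxylase, at 12.45, 12.36, 12.39 and 12.37 in BALB/cN and 12.79, 12.74, 12.62 and 12.65 in C57BL/6N. Its difference was -0.31 (adjusted p = 0.00422 from limma) and was not called after median centring (-0.38, adjusted p = 0.0154) or quantile normalization (-0.26, adjusted p = 0.0307), nor without any one of 5 of the 8 corneas. Tll1, a protease that removes the C-propeptide, was higher in every BALB/cN cornea (8.46 ± 0.40 against 7.51 ± 0.34, SD, n = 4) without passing the threshold (adjusted p = 0.0214). The median difference of the list was 0.20, and for 5 of its genes the unadjusted p-value was below 0.05, against 23.7% of all genes.

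Serpinh1, the collagen chaperone HSP47, was at 11.47, 10.53, 11.54 and 11.66 in BALB/cN and 11.96, 12.05, 10.04 and 10.08 in C57BL/6N. It thus had the order of the stromal collagens. Lox, which starts cross-linking, ran from 9.18 to 10.57 and from 7.90 to 10.51, and the procollagen C-proteinase Bmp1 from 10.42 to 10.74 and from 10.43 to 10.89. With the keratocyte covariate 3 genes were called, against 9.34% of all genes. These were P4hb (-0.34), Tll1 (1.04) and Plod2 (0.54), a lysyl hydroxylase.

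Of 10 collagen receptor genes, 9 were tested, as the platelet receptor Gp6 was at 0 in all corneas. None was called by limma or by voom, against 5.74% and 5.61% of all genes. Unadjusted p-values were under 0.05 for Ddr1 and Lair1, against 23.7% of all genes. Ddr1, the discoidin receptor of epithelia, was at 13.28 ± 0.09 in BALB/cN and 13.46 ± 0.15 in C57BL/6N (SD, n = 4; difference -0.18, adjusted p = 0.193). Ddr2, its counterpart in connective tissue cells, was at 11.06 ± 0.42 and 10.56 ± 1.06, and Itgb1, the β1 chain of the collagen-binding integrins, at 12.28 ± 0.07 and 12.05 ± 0.28. Their differences of 0.50 and 0.23 were within the spread between corneas.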

How the data were processed

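Naive corneas of BALB/cN (4) and C57BL/6N (4) mice were analysed by total RNA sequencing with strand-specific libraries and paired reads. The authors trimmed and filtered reads, aligned them to strain pseudo-genomes of GRCm38 (TopHat2 2.1.1 in the submitters' processing notes) and counted on exons of Ensembl genes (HTSeq 0.7.1). Whether counting used strand is not given in the sources used here. The authors deposited log2-scale values from the rlog function of DESeq2 1.30, other than counts. Columns were mapped by sample labels.

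Both strains were tested against each other in limma 3.58.1 under R 4.3.3 (lmFit, eBayes with trend) over 25402 genes with a mean of at least 0, with Benjamini-Hochberg adjustment and a threshold of 0.01, and single genes with an exact permutation test (scipy 1.17.1). The study fitted a count model, which rlog values do not allow. Reads per gene were obtained by solving the rlog equations backwards, with constants and size factors estimated from the deposited table, and analysed with limma voom. Procedures were tested on simulated corneas that did not vary in stromal content within a strain, so this test does not cover the spread seen here. Symbols, exons and positions are from GENCODE M21 (GRCm38).

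Members, gene lists and tests were chosen with earlier results of these data known. Named with full values were called collagens, 17 corneal collagens and those with the largest spread, and from 37 biosynthesis and 10 receptor genes those called, of lowest adjusted p, or set by name. Alternatives were variance trend, robust fit, filter, centring, quantile normalization, empirical null, threshold, replicate block, keratocyte covariate, left-out corneas and voom. Voom with covariate and leaving out BALB/cN replicates 1 and 4 were chosen after seeing the data. The interval of the Col6a4 read ratio covers counting error only, as PCR reads are not independent molecules. Other intervals are from limma and rest on the spread between corneas.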

Additional observations from a re-analysis of the deposited data

Results flagged for a closer look

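In 10 of 88 groups of 4 corneas, that is each collagen gene in each strain, the lowest or highest cornea lay so far from the others that its gap passed Dixon's 95% critical value as a share of the range, where chance gives about 4.4. BALB/cN replicate 2 was the low cornea in 7 of them, with shares of 0.990 for Col12a1, 0.857 for Col1a1, 0.956 for Col1a2, 0.910 for Col5a2, 0.943 for Col6a1, 0.931 for Col6a2 and 0.914 for Col6a3. This is the cornea with the lowest keratocyte mean of its strain. The 7 genes share this cornea and are not 7 independent findings. The other 3 groups rest on few reads, with Col10a1 in BALB/cN replicate 3 (0.989, 2 reads), Col22a1 in BALB/cN replicate 4 (0.926, 14 reads) and Col9a2 in C57BL/6N replicate 2 (0.831, 23 reads). A departure shared by 2 corneas, such as that of Col18a1 in BALB/cN replicates 1 and 4 or of the stromal collagens in C57BL/6N replicates 3 and 4, is not found in this way.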

How the results depend on the processing

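Col3a1, Col4a6, Col6a4 and Col20a1 kept their direction under all 22 alternatives and Col9a3 did, too. Col6a4 and Col20a1 lost their call only under the empirical null, Col3a1 and Col4a6 under it, the replicate block and without BALB/cN replicates 1 and 4, and Col9a3 under 13 alternatives. Among the named collagens, 395 comparisons with an alternative kept direction and side of the threshold, 21 lost the call, 2 gained it with the same sign (Col4a3 both times) and 44 changed sign. Of these 44, 4 were called in that fit, namely Col1a1, Col6a2, Col6a3 and Col12a1 without the 3 stroma-poor corneas. The cause of the changes below was not tested, except that a looser threshold, fewer samples and terms added to the fit change counts by construction.

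The empirical null called 0 genes, 0 collagens (0 higher, 0 lower) and 0 biosynthesis genes. An adjusted p of 0.05 called 2842 genes, 2 collagens lower and 2 biosynthesis genes. Median centring, which shifts all genes down, called 958 genes, 2 collagens lower (Col9a1 in, Col9a3 out) and 0 biosynthesis genes, as did quantile normalization for the latter (0). The keratocyte covariate called 2372 genes, 8 collagens (2 lower) and 3 biosynthesis genes, and voom with it 2495, 10 (4 lower) and 3. Without the 3 stroma-poor corneas 852 genes, 10 collagens (7 lower) and 3 biosynthesis genes were called, and without BALB/cN replicates 1 and 4 447 genes, 2 collagens (2 higher, 0 lower) and 0 biosynthesis genes. With single corneas left out, 953 to 1163 genes and 0 to 1 biosynthesis genes were called, the lowest without C57BL/6N replicate 4, with 4 to 5 collagens. Receptor genes remained at 0 called under all alternatives.

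Deviations of corneas with the same replicate number correlated at 0.31, -0.53, -0.20 and -0.45. Replicate numbers 2, 3 and 4 each join a stroma-poor and a stroma-rich cornea. These correlations therefore cannot tell whether corneas with the same number were handled together. With the replicate block 554 genes, 2 collagens (2 higher, 0 lower: Col20a1 and Col6a4) and 0 biosynthesis genes were called.

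Differences that changed sign belonged to collagens that were not called over all 8 corneas. With the covariate they were -0.0504 (Col1a1), -0.0668 (Col6a3), -0.068 (Col5a2), -0.11 (Col6a2), -0.16 (Col8a1) and -0.23 (Col5a1), and with voom as well -0.0142 (Col12a1), -0.13 (Col5a2), -0.13 (Col6a3), -0.15 (Col1a1), -0.19 (Col6a2), -0.23 (Col8a1) and -0.34 (Col5a1). Without the 3 stroma-poor corneas they were -0.0607 (Col4a1), -0.12 (Col4a2), -0.17 (Col8a2), -0.17 (Col1a2), -0.22 (Col6a1), -0.28 (Col12a1), -0.30 (Col5a2), -0.31 (Col8a1), -0.32 (Col6a3), -0.36 (Col6a2), -0.41 (Col1a1), -0.45 (Col5a1) and 0.0256 (Col17a1). Without BALB/cN replicates 1 and 4 they were -0.0554 (Col5a1) and -0.12 (Col8a1), and after median centring -0.0209 (Col5a1) and -0.0701 (Col7a1). With 1 cornea left out in turn, differences ran from -0.18 to 0.30 for Col5a1, from -0.0695 to 0.0721 for Col7a1, from -0.14 to 0.37 for Col8a1, from -0.0427 to 0.57 for Col6a2, from -0.00998 to 0.53 for Col6a3 and from -0.0064 to 0.53 for Col5a2. Depth limits the 8 collagens with under 10 normalized reads.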

Other observations

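The mean rlog value of 8 skeletal muscle genes lay between 3.40 and 3.75 in all 8 corneas. That of 4 photoreceptor genes lay between 4.49 and 5.25, with BALB/cN replicate 1 highest. Summed normalized reads ran from 49.7 to 219 for the skeletal muscle genes, with the 3 stroma-poor corneas lowest. They ran from 113 to 464 for 5 photoreceptor genes, Rcvrn included, which was below the filter on the mean. Of the 10 cell type lists, none held a gene called at an adjusted p of 0.01 by limma, against 5.74% of all genes tested. Some list means varied widely within BALB/cN, as for pigment cell genes (5.85 to 10.48), so this does not show alike cell content.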
